A study of Mus musculus with 6 samples.

Results

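Desmosomes are spot junctions that hold neighbouring epithelial cells together and tie their keratin filaments to the cell membrane. Their adhesive part is made of cadherins of the desmoglein and desmocollin families, which reach across the gap between cells. Inside the cell the cadherin tails bind plakoglobin and the plakophilins, and these bind desmoplakin, which holds the keratin filaments. In stratified epithelia the cadherins are layered: Dsg3 is strongest toward the basal layer, while Dsg1 and Dsc1 are strongest in the upper layers. The group described here has 10 genes, chosen by symbol from the 17554 genes of the deposited table: the desmogleins *Dsg1a*, *Dsg2* and *Dsg3*, the desmocollins *Dsc1*, *Dsc2* and *Dsc3*, and the plaque genes *Dsp* (desmoplakin), *Jup* (plakoglobin), *Pkp1* and *Pkp3* (plakophilins).

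The RNA came from the corneal epithelium of C57BL/6 mice aged 2 months, with 3 samples labelled WT (control) and 3 samples labelled Rela-/- (mutant). The mutants are *Krt14-Cre; Rela f/f* mice, in which a recombinase driven by the keratin 14 promoter deletes floxed *Rela*, the gene of the RelA subunit of NF-κB, in keratin 14-expressing cells and their descendants, also outside the cornea. The deletion is therefore not a germline knockout, and the labels do not say whether the controls carry the floxed alleles. The samples are bulk RNA-seq libraries, so fewer cells of a type and less RNA per cell cannot be told apart.

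Each sample held 19492942 to 19733834 expected counts, which are read counts that RSEM divides among genes where a read fits several. *Rela* had 1614 to 1799 counts in controls and 230 to 270 in mutants. The 6 corneal markers *Krt12*, *Krt5*, *Krt14*, *Pax6*, *Aldh3a1* and *Epcam* had at least 1279 counts in every sample. Of these, *Aldh3a1* was lower in mutants (log2 fold change -0.25, adjusted p = 0.0466 from edgeR), *Epcam* was higher (0.30, adjusted p = 0.0297 from edgeR) and so was *Krt14* (3.32, adjusted p = 1.06e-05). Of the markers of other cell types, the 7 stromal genes summed to an FPKM (reads scaled to transcript length and library size) of 0.35 to 0.53 in control and 0.88 to 3.58 in mutant samples. *Kera* had at most 3 counts in any sample. *Dcn* had 3, 2 and 1 counts in controls and 66, 34 and 14 in mutants (log2 fold change 4.17, adjusted p = 0.00507 from edgeR). It passed the filter on low counts only through the mutant samples. *Col1a1* and *Col3a1*, with at most 23 and 32 counts, were higher in each mutant sample than in each control sample. *Thy1* had an adjusted p of 0.352 from edgeR. The 7 immune genes summed to 82.3 to 90.7 in control and 74.9 to 122.6 in mutant samples. Most of this was *Itgam* (FPKM 51.0 to 94.8 over all samples) and *Cd68* (17.3 to 24.5). *Ptprc*, the general leukocyte marker, had 1 to 14 counts per sample, *Cd3e* 0 to 5, *Adgre1* 1 to 3 and *Cd52* 10 to 22. *Lyz2* had 0, 0 and 1 counts in controls and 24, 13 and 4 in mutants. The 4 vascular genes summed to 0.03 to 0.12 in control and 0.14 to 0.24 in mutant samples, and the 4 melanocyte genes to 3.86 to 4.5 and 4.31 to 4.79. The 4 conjunctival genes summed to 1362 to 1595 in control and 1074 to 1191 in mutant samples, with the goblet cell mucin *Muc5ac* at no more than 3 counts, and the 6 epidermal genes to 8.9 to 12.5 and 13.9 to 17.9. The part of these differences in the results below was not tested. Mutant sample 1 stood apart from the other mutant samples on the second principal component, at 24.1 against -9.53 and -20.6.

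The desmosome genes were asked first how strongly each is used, and then whether *Rela* deletion changed them. All 10 passed the filter on low counts. In control samples *Jup* was the highest (mean FPKM 740, rank 65 of all genes over the 6 samples), followed by *Dsp*, *Dsc2*, *Pkp1*, *Dsg1a*, *Dsc3*, *Pkp3*, *Dsg3*, *Dsg2* and *Dsc1*. Along this order the sample ranges of *Pkp1* and *Dsg1a* overlapped, as did those of *Dsc3* and *Pkp3*. In mutant samples *Dsg3* moved up past *Pkp3*, *Dsc3* and *Dsg1a*, and there the ranges of *Dsc2* and *Pkp1*, of *Dsg3* and *Pkp3*, and of *Dsg1a* and *Dsc3* overlapped. Of the 10 genes, 3 had an adjusted p under 0.05 from edgeR's quasi-likelihood test over the 12667 genes tested, where 13.2% of all genes did. *Dsg3* and *Pkp3* were higher in mutants (7.82% of all genes were) and *Dsg1a* was lower (5.42% of all genes were). At an unadjusted p under 0.05 there were 5 of the 10 genes, where 28.1% of all genes passed. None of the 10 passed the stricter pair of limits that the study used, a fold change of at least 2 with an adjusted p no higher than 0.001, which 1.37% of all genes passed. These limits were applied here to edgeR's values, while the authors' own values were made with DEGseq, so the counts are not those of the study. None of the 10 passed the limits with DESeq2 or limma either. In 5 of the 10 genes the scaled counts of the groups did not overlap, which was so for 33.7% of all genes. The median log2 fold change of the 10 genes was 0.10, and that of all tested genes was -0.0028.

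**Figure D1:**
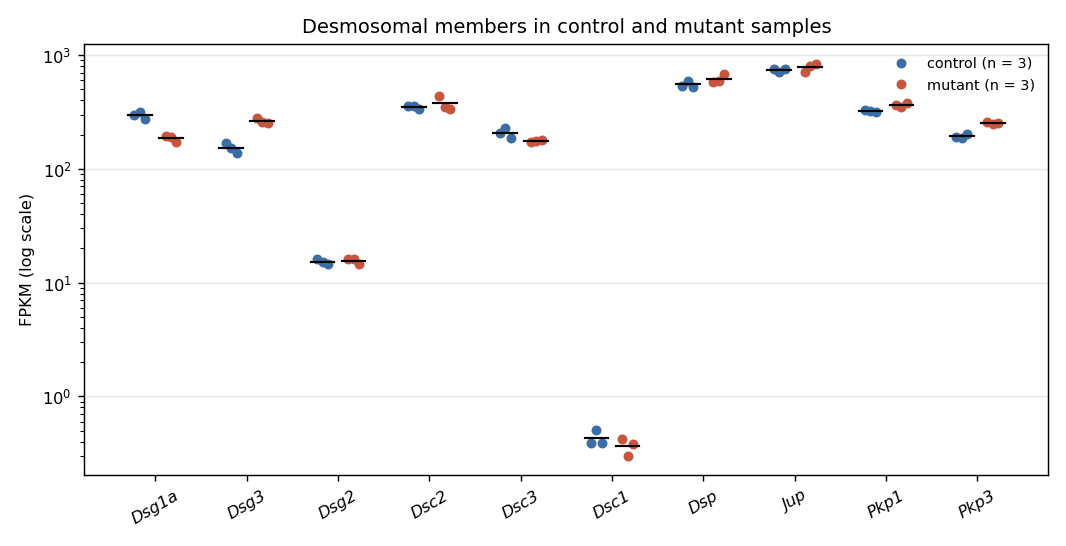
FPKM of the 10 desmosomal genes on a log axis, with a point for each sample (3 control, 3 mutant) and a bar at the group mean. The mutant points of *Dsg1a* lie below the control points and those of *Dsg3* and *Pkp3* above them, while *Dsc1* lies near 0.4 in both groups.

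Of the desmogleins, *Dsg1a* fell and *Dsg3* rose, and the others did not pass the test or had too few counts for it. *Dsg1a* encodes desmoglein 1, the cadherin that staphylococcal exfoliative toxin cleaves and that autoantibodies bind in pemphigus foliaceus. Its FPKM was 300.1, 315.9 and 274.8 in controls and 195.3, 189.5 and 171.9 in mutants. Every mutant sample was below every control sample. *Dsg1a* fell by 0.64 on the log2 scale (standard error 0.085), with an adjusted p of 0.00121 from edgeR, which is 0.641 times the control level (95% interval 0.562 to 0.731).

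*Dsg3* encodes desmoglein 3, the main autoantigen of pemphigus vulgaris. Its FPKM was 169.5, 153.1 and 137.4 in controls and 279.4, 260.9 and 254.0 in mutants. The lowest mutant sample was well above the highest control sample. *Dsg3* rose 1.73-fold (95% interval 1.5 to 1.98), by 0.79 on the log2 scale (standard error 0.089), at an adjusted p of 5.29e-04 from edgeR. Both genes kept their direction and an adjusted p under 0.05 in each of 14 alternative fits, which changed the scaling, filter or tool, added a replicate block or left out a sample.

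*Dsg2*, the desmoglein of simple epithelia and heart muscle, was much lower than the other desmogleins of the group. Its FPKM was 16.2, 15.3 and 14.5 in controls and 16.1, 16.1 and 14.4 in mutants. The groups overlapped throughout, and the log2 fold change was 0.02 (95% interval -0.16 to 0.20, adjusted p = 0.914 from edgeR).

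The ratio of *Dsg3* to *Dsg1a*, taken per length from FPKM, was 0.565, 0.485 and 0.500 in controls and 1.43, 1.38 and 1.48 in mutants. *Dsg1a* thus had the higher level of the pair in each control sample and *Dsg3* in each mutant sample. Over all 6 desmoglein genes of the table, the summed FPKM was 496 ± 33 in control and 496 ± 30 in mutant samples (SD, n = 3 each). *Dsg1a* made up 59.9% ± 1.6 of this sum in control and 37.4% ± 0.78 in mutant samples, and *Dsg3* made up 30.9% ± 1.7 and 53.4% ± 0.87 (SD, n = 3 each). *Dsg1b* made up 6.02% and 6.03%, and *Dsg2* 3.09% and 3.13%. The ranges of the sum overlapped between the groups, and those of the *Dsg1a* and *Dsg3* shares did not.

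**Figure D2:**
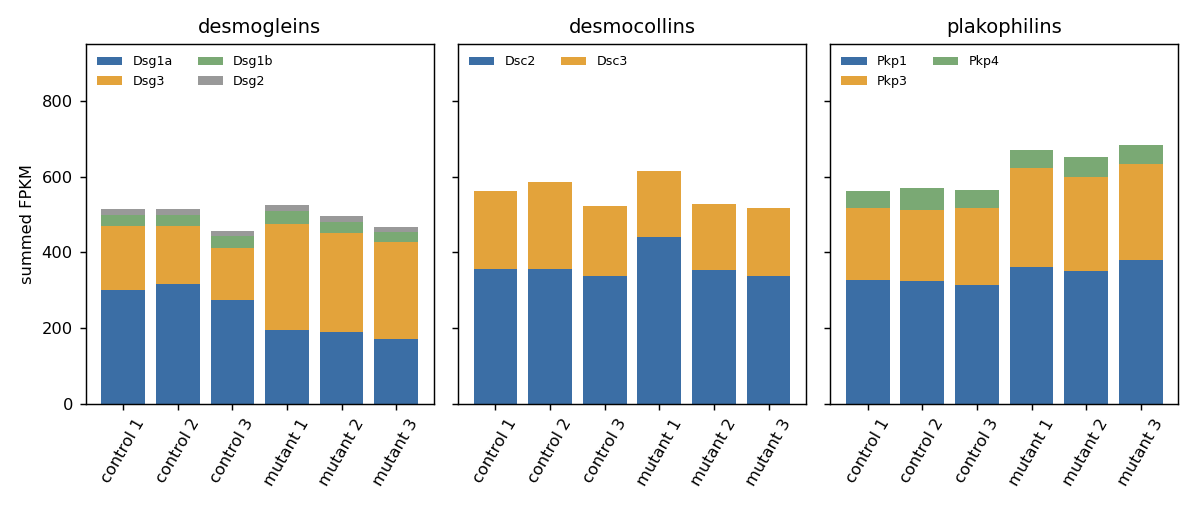
Summed FPKM of the desmogleins, desmocollins and plakophilins in each of the 6 samples, as bars from 0 with a color for each gene (genes at an FPKM of about 1 or less are left out). In the left panel the bars reach 458 to 526 and the *Dsg3* part is larger in the 3 mutant samples; in the right panel the mutant bars are taller, with sums of 669 ± 16 against 566 ± 3.7 (SD, n = 3 each).

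Short reads do not separate all desmogleins. Of the 50-base windows of the *Dsg1a* transcripts, 35.0% also occur in another gene, and 31.6% occur in *Dsg1b*, whose own windows are shared at 48.9%. The division of reads between these copies is thus RSEM's estimate. The TMM-scaled CPM (counts relative to library size) of *Dsg1a*, *Dsg1b* and *Dsg1c* together was 1639, 1769 and 1538 in controls and 1179, 1145 and 1033 in mutants. The sum did not overlap between the groups either, and its mean fell by 0.56 on the log2 scale. For *Dsg3* the shared windows were 0.116%. *Dsg1b* had a log2 fold change of 0.03 (95% interval -0.19 to 0.25) and *Dsg1c*, with 26 to 47 counts per sample, of -0.34 (95% interval -0.86 to 0.19), and neither passed the test. *Dsg4*, the hair desmoglein, had 0 to 4 counts per sample, too few to be tested.

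The 9 desmosomal cadherin genes of the table lie side by side on chromosome 18 of GRCm38, within 643.6 kb. By start position the order is *Dsc3*, *Dsc2*, *Dsc1*, *Dsg1c*, *Dsg1a*, *Dsg1b*, *Dsg4*, *Dsg3* and *Dsg2*, with the desmocollins on the minus strand and the desmogleins on the plus strand. The gene that fell and the gene that rose are separated only by *Dsg1b* and *Dsg4*, and *Dsg1b*, next to *Dsg1a*, did not pass the test.

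None of the desmocollins passed the test. *Dsc2*, the most widely used desmocollin, had an FPKM of 354.7, 355.0 and 336.8 in controls and 441.5, 352.4 and 337.5 in mutants. Mutant sample 1 was the only one above the control range. The log2 fold change of *Dsc2* was 0.11 (95% interval -0.13 to 0.35, adjusted p = 0.536 from edgeR) and -0.02 without mutant sample 1.

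*Dsc3*, a desmocollin of the basal layers, had an FPKM of 207.1, 229.3 and 186.1 in controls and 173.6, 175.9 and 180.4 in mutants. The mutant samples all lay below the controls, but close to the lowest. Its log2 fold change was -0.23 (95% interval -0.42 to -0.04), with an adjusted p of 0.1005 from edgeR and of 0.0485 from DESeq2. *Dsc1*, the desmocollin of the uppermost epidermal layers, had 29 to 50 counts per sample and an FPKM of 0.39, 0.51 and 0.39 in controls and 0.42, 0.30 and 0.38 in mutants. At this depth its interval was wide, with a log2 fold change from -0.75 to 0.30. The summed desmocollin FPKM was 557 ± 31 in control and 554 ± 53 in mutant samples (SD, n = 3 each). *Dsc2* made up 62.7% ± 1.9 of it in control and 67.8% ± 3.5 in mutant samples.

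Among the plaque genes, *Pkp3* differed between the groups. Plakophilin 3 is found in desmosomes of nearly all epithelia and binds more desmosomal cadherins than the other plakophilins. Its plus-strand gene spans 141078229 to 141090511 of chromosome 7 (GRCm38). Its FPKM was 189.5, 187.3 and 203.7 in controls and 260.6, 246.3 and 253.9 in mutants. All mutant samples were above all controls. *Pkp3* rose 1.31-fold (95% interval 1.16 to 1.47), by 0.39 on the log2 scale (standard error 0.076), at an adjusted p of 0.00921 from edgeR. Without control sample 1 or control sample 2 its adjusted p was 0.0504 and 0.0526, just past the threshold, with log2 fold changes of 0.36 in both fits.

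*Pkp1*, on chromosome 1 from 135871394 to 135919207, encodes the plakophilin of the upper layers of stratified epithelium, whose loss in people causes skin fragility. Its FPKM was 327.7, 323.4 and 313.2 in controls and 360.8, 351.8 and 380.2 in mutants. The groups did not overlap, but the difference was small, with a log2 fold change of 0.18 (95% interval 0.03 to 0.33, adjusted p = 0.118 from edgeR). Of the plakophilins outside the group of 10, *Pkp4* had a log2 fold change of 0.0041 (95% interval -0.23 to 0.24). *Pkp2*, the heart plakophilin, had 41 to 73 counts per sample and a log2 fold change of -0.11 (95% interval -0.64 to 0.42).

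*Dsp*, on chromosome 13 from 38151082 to 38198577, encodes desmoplakin, which joins the plaque to keratin. Its FPKM was 539.4, 587.9 and 528.9 in controls and 585.3, 590.6 and 682.0 in mutants. The groups overlapped, and the log2 fold change was 0.17 (95% interval -0.02 to 0.36, adjusted p = 0.216 from edgeR). *Jup*, on chromosome 11 from 100368856 to 100397805 on the minus strand, encodes plakoglobin, a relative of β-catenin that sits in desmosomes and adherens junctions. Its FPKM was 757.9, 710.1 and 753.1 in controls and 710.5, 807.1 and 842.8 in mutants. The log2 fold change was 0.09 (95% interval -0.09 to 0.27, adjusted p = 0.528 from edgeR), and the mutant samples lay both inside and above the control range.

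*Jup* is shown with sequence because a match to the NF-κB consensus lies near its start, while its level did not pass the test. Of the 10 genes, *Jup* and *Dsp* matched an entry in the RefSeq promoter sequences of GRCm38.p6. The 250 bases before each start were searched on both strands for the NF-κB consensus, the AP-1 site TGANTCA, the Grainyhead-like site AACCNGTT and the Slug E-box CAGGTG. The NF-κB consensus was found in 7.25% of the 32851 windows of the table, AP-1 in 6.75%, Grainyhead-like in 1.79% and the E-box in 17.2%. The *Dsp* window held none of these letters. The *Jup* window held 2 overlapping matches to the NF-κB consensus and none of the other motifs. They span 11 bases, from 57 to 47 bases before the start of the RefSeq promoter entry at 100397790, which is 42 to 32 bases before the start in the deposited table, and the longest RefSeq model of *Jup*, from 100397839, begins inside them. They are printed in capitals within 30 bases of chr11:100397828-100397857 (minus strand, 5′ to 3′).
Jup: ctcagagggtGGGAGTCTCCCtagggggcg
A match of letters is no evidence that a factor binds there.

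**Figure D3:**
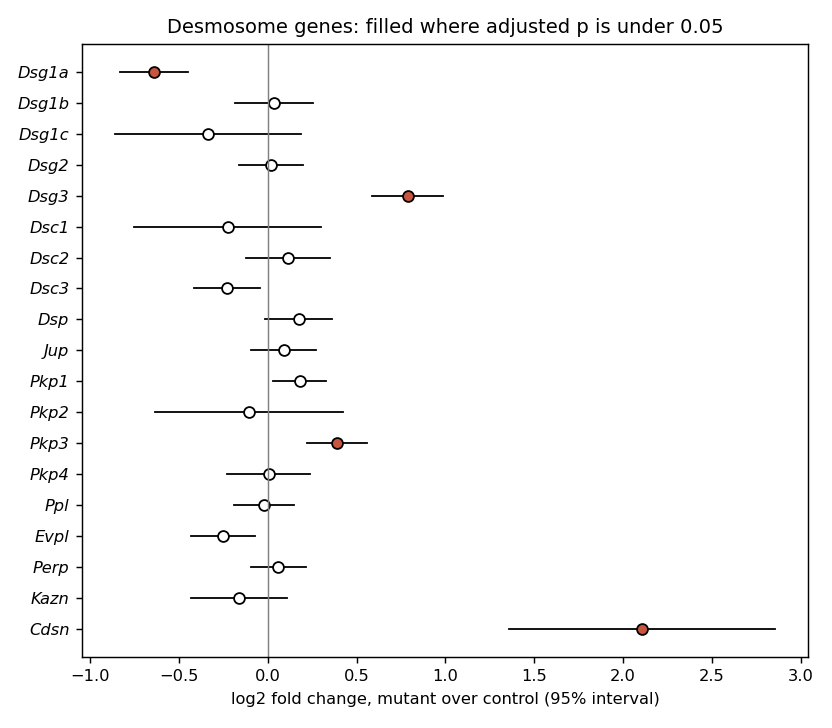
Log2 fold change of mutant over control samples for the 10 desmosomal genes and the other tested desmosome genes, with bars for the 95% interval of edgeR's fit and filled points where the adjusted p is under 0.05. *Dsg1a* lies left of 0, *Dsg3*, *Pkp3* and *Cdsn* lie right of 0, and the open points lie between -0.34 and 0.18.

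The list of 10 other desmosome genes held the remaining parts of the junction, and 1 of its 9 tested genes passed the test, where 13.2% of all genes did. The gene that passed was *Cdsn*, on chromosome 17 from 35543082 to 35557180, which encodes corneodesmosin, a glycoprotein added to the outer face of desmosomes in cornifying epithelium. Its FPKM was 13.7, 9.0 and 27.1 in controls and 58.4, 73.8 and 84.9 in mutants. The controls varied 3-fold among themselves, and each mutant sample was still above each of them. *Cdsn* rose 4.31-fold (95% interval 2.56 to 7.24, adjusted p = 0.00325 from edgeR).

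The plakins *Evpl* (envoplakin) and *Ppl* (periplakin), which bind desmosomes and form the scaffold of the cornified envelope, had mean FPKM values of 441 and 471 in control samples. *Evpl* had a log2 fold change of -0.25 (95% interval -0.43 to -0.07), with an adjusted p of 0.0713 from edgeR and of 0.0194 from DESeq2. *Ppl* had one of -0.02 (95% interval -0.19 to 0.15). *Perp*, a membrane protein of desmosomes and a target of p63, had the highest level of all desmosome genes described here, with a mean FPKM of 1507 ± 5.3 in control and 1573 ± 39 in mutant samples (SD, n = 3 each), and its log2 fold change was 0.06 (95% interval -0.10 to 0.22). *Kazn*, whose product kazrin binds periplakin, had a log2 fold change of -0.16 (95% interval -0.44 to 0.11). The median over the 9 tested genes was -0.02.

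Proteases that cleave desmosomal proteins, with an inhibitor of them, formed a separate list. Of its 10 genes, 8 were tested, and 5 rose and 1 fell, with a median log2 fold change of 0.34. Of all genes tested, 7.82% rose and 5.42% fell. *Klk7*, a kallikrein that cuts corneodesmosin, had 4, 2 and 8 counts in controls and 247, 124 and 162 in mutants. The controls were near the limit of detection, and the fitted log2 fold change of 5.21 (95% interval 4.27 to 6.14, adjusted p = 7.38e-05 from edgeR) rests on these few counts. *Klk7* passed the filter on low counts only through the mutant samples. It was not tested in the fit that asked for at least 10 counts in every sample. *Klk8*, another kallikrein of shedding skin, rose 4.79-fold (95% interval 3.61 to 6.35), with an FPKM of 2.94, 2.45 and 2.80 in controls and 13.2, 9.14 and 11.2 in mutants. Of its transcript windows 21.7% also occur in a neighbouring gene. *Spink5*, which encodes the kallikrein inhibitor LEKTI, rose in the same samples, with an FPKM of 18.6, 15 and 20.5 against 69.0, 43.7 and 43.3 (2.88-fold, 95% interval 2.13 to 3.89, adjusted p = 9.35e-04 from edgeR).

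The other 3 genes of this list that passed are membrane sheddases, and they were named after their values were seen. *Adam10* and *Adam17*, whose products cut Dsg2 and other surface proteins, rose 1.27-fold and 1.26-fold (adjusted p = 0.0218 and 0.0292 from edgeR). *Adam15* fell by 0.24 on the log2 scale (adjusted p = 0.0448 from edgeR), and 20.6% of its exon bases overlap another gene. None of these 3 calls was kept in every fit that left out a sample. *Klk14* had 7 to 16 counts per sample and did not pass, and *Klk6* had too few counts to be tested.

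**Figure D4:**
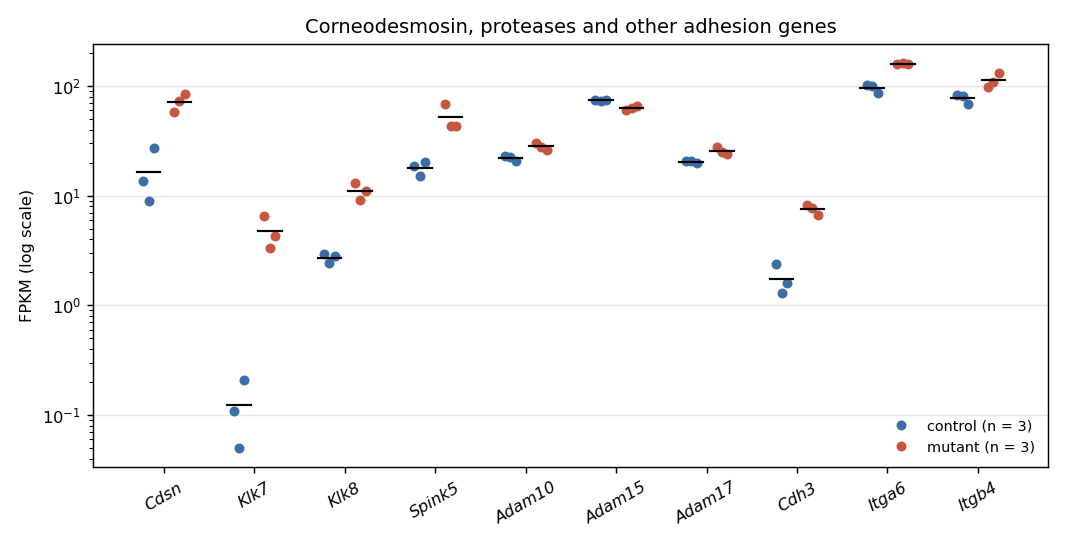
FPKM on a log axis of *Cdsn*, the proteases and inhibitor that passed the test, and *Cdh3*, *Itga6* and *Itgb4*, with a point for each sample and a bar at the group mean (n = 3 each). The mutant points lie above the control points for each gene except *Adam15*, and the gap is widest for *Klk7*.

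Some genes known to mark cell layers were taken from several lists after their values were seen. *Krt14*, a keratin of basal cells whose promoter drives the Cre, had an FPKM of 203, 150 and 181 in controls and 2204, 1580 and 1474 in mutants (log2 fold change 3.32, standard error 0.18, adjusted p = 1.06e-05 from edgeR). Its partner *Krt5* had a log2 fold change of -0.07 (95% interval -0.25 to 0.10), and *Trp63*, the basal cell factor p63, one of 0.04 (95% interval -0.16 to 0.23). *Krt13*, a keratin of upper mucosal layers, fell by 0.45 on the log2 scale (adjusted p = 0.0152 from edgeR). *Ivl*, the gene of the upper-layer protein involucrin, was low and rose 2.10-fold (95% interval 1.45 to 3.04, adjusted p = 0.0168 from edgeR), while the upper-layer epidermal keratins *Krt1* and *Krt10* had log2 fold changes of -0.10 and -0.22 and did not pass. *Krt4*, from the same list as *Krt13*, had a log2 fold change of -1.01 (95% interval -1.81 to -0.22, adjusted p = 0.0913 from edgeR). *Krt19* of that list had one of 0.06 (95% interval -0.27 to 0.39). Upper-layer genes thus went both ways: *Ivl* rose, and *Krt13* and *Dsg1a* fell. *Cdsn*, of cornifying epithelium, and the kallikrein genes *Klk7* and *Klk8* also rose, as given above. *Pkp1*, the plakophilin of the upper layers, did not pass. Among adhesion genes of basal cells, *Cdh3*, *Itga6* and *Itgb4*, described below, rose (log2 fold changes 2.11, 0.73 and 0.53). The desmosomal gene *Dsc3* did not pass in the main fit, nor did the hemidesmosome genes other than *Itga6* and *Itgb4*. With DESeq2, *Dsc3* and the hemidesmosome gene *Col17a1* passed. The part of a change in cell layers in the desmoglein values was not tested.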

How the data were processed

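After rRNA depletion the authors obtained 50-base single-end reads, which were cleaned with SOAPnuke, mapped with Bowtie2 2.2.5 and quantified per gene with RSEM 1.2.12. The submitters' processing notes name mm9, but the deposited coordinates are those of GRCm38. The labels name a TruSeq kit and the methods a BGISEQ-500 library, and strand is not given in the sources used here. The deposited table holds expected counts and FPKM per sample, and the authors' group means of both, which were not used. The log2 fold changes, p-values and q-values in the deposited table were made by the authors with DEGseq and were not used here.

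Samples were grouped by title. Expected counts were rounded and tested with edgeR 4.0.16 in R 4.3.3 (TMM scaling, filterByExpr with a minimum count of 10 and total of 15, quasi-likelihood test, genotype as factor, Benjamini-Hochberg adjustment over 12667 genes). With 3 samples per group an exact permutation test cannot go below 0.1, so none is given. Alternatives were DESeq2 1.42.0, limma 3.58.1 on log2(FPKM + 1) and log2(FPKM + 0.1), other scalings and filters, a replicate block and leaving out each sample. The edgeR test, tested on simulated data with 100 genes changed 2-fold, called 97% of them. In the simulation, genes with low counts were not changed and all genes had a common dispersion (spread between samples). The share thus does not hold for genes with low counts or for changes smaller than 2-fold. The methods call the samples independent biological samples, and no source used here ties same-numbered samples together. Shared windows and exon overlaps come from GENCODE M21 (GRCm38).

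The members and lists were chosen with earlier results of these data known. Named by rule are the 10 members, the other desmosome genes, and up to 3 called genes with the smallest adjusted p of each other list. *Rela* and the cell type markers are named besides. *Adam10*, *Adam15*, *Adam17*, *Klk6*, *Klk14*, *Trp63*, *Cdh1*, *Col17a1* and *Grhl1* are named outside this rule. *Klk5*, of the protease list, was not among the 17554 genes and so was not analysed here. A gene of the transcription factor list is not reported here.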

Additional observations from a re-analysis of the deposited data

How the results depend on the processing

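Over 14 alternative fits, *Dsg1a* kept a log2 fold change of -0.70 to -0.59 and *Dsg3* of 0.73 to 0.86, and both stayed under an adjusted p of 0.05. The number of desmosomal genes past that threshold, 3, was 4 with DESeq2, which added *Dsc3*, 2 to 3 when a sample was left out, and 3 in the other fits. *Pkp3* (0.36 to 0.44) was the gene lost, without control sample 1 or 2. The number past the stricter limits was 0 in each fit. Of the other desmosome genes 1 passed in each fit except DESeq2, which gave 2, adding *Evpl*. Over the protease, transcription factor, adherens junction and hemidesmosome lists 12 genes passed in the main fit, where 13.2% of all genes tested did. Leaving out a sample gave 6 to 13: 7 without control sample 2, 6 without control sample 3 and 7 without mutant sample 2. Fits with fewer samples test with fewer degrees of freedom. In CPM, which is not per length, *Dsg3* made up 26.9% of the desmogleins in control and 47.7% in mutant samples.

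Same-numbered samples did not deviate together (correlations 0.019, 0.048 and -0.046, against -0.077 to 0.064 for the other pairs). With so few samples this cannot exclude a pairing. With the replicate block 3 desmosomal genes, 1 other desmosome gene and 10 genes of the other lists passed, against 12. Over all genes tested, the median log2 fold change lay between -0.014 and 0.013 in every fit. *Dsc1*, *Dsg1c* and *Pkp2* are limited by depth.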

Other observations

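Adherens junctions join neighbouring cells through classical cadherins tied to actin. Of their 9 listed genes, 1 passed the test, where 13.2% of all genes did: *Cdh3*, the gene of P-cadherin, a classical cadherin of basal cells. Its FPKM was 2.39, 1.29 and 1.59 in controls and 8.29, 7.72 and 6.74 in mutants, a 4.32-fold rise (95% interval 3.20 to 5.82, adjusted p = 1.63e-04 from edgeR). *Cdh1*, the gene of E-cadherin, had a mean FPKM of 117 in control and 127 in mutant samples and a log2 fold change of 0.12 (95% interval -0.06 to 0.30), and the median of the list was 0.04.

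Of 6 hemidesmosome genes, which anchor basal cells to the basement membrane, 2 rose and none fell, with a median log2 fold change of 0.23. Of all genes tested, 7.82% rose and 5.42% fell. *Itga6* had an FPKM of 103.1, 99.5 and 87.2 in controls and 159.5, 161.9 and 158.5 in mutants (1.66-fold, adjusted p = 3.87e-04 from edgeR). *Itgb4*, its partner in the laminin receptor, rose 1.45-fold (adjusted p = 0.0108 from edgeR), and passed in 13 of 15 fits. Its adjusted p was 0.0534 from edgeR without control sample 3 and 0.0535 from limma on log2(FPKM + 1).

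Transcription factors of epithelial adhesion formed the last list. *Snai2*, which encodes the repressor Slug, rose 1.94-fold (FPKM 9.59, 9.96 and 10.2 in control and 16.9, 22.5 and 18.3 in mutant samples, adjusted p = 7.19e-04 from edgeR). *Grhl3*, a factor of epidermal differentiation, rose 1.25-fold (adjusted p = 0.0314 from edgeR), and passed in 9 of 15 fits. It did not pass without control sample 2, control sample 3 or mutant sample 2 (adjusted p = 0.1298, 0.1154 and 0.1099), with the replicate block (0.067) or in either limma fit (0.0572 and 0.0517). *Grhl1*, a known activator of *Dsg1a* that was named outside the rule for naming genes, had a log2 fold change of 0.03 (95% interval -0.22 to 0.27).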
